A study of Mus musculus with 6 samples.

Results

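The SR splicing factor family was followed here through 10 genes, Srsf1, Srsf2, Srsf3, Srsf4, Srsf5, Srsf6, Srsf7, Srsf9, Srsf10 and Srsf11, taken by symbol from a table of 24041 mouse genes. All 10 were in the table, and all 10 were among the 14451 genes that passed the filter on low counts. The libraries came from mouse cerebral cortices into whose cells plasmids had been brought by electroporation (short electric pulses), followed by a sort for green fluorescent protein (GFP). Of the 6 libraries, 3 came from cells given GFP and wild-type PRPF6 and 3 from cells given GFP and mutant PRPF6. Both groups were thus given PRPF6, so a rise in one group cannot be told apart from a fall in the other. The mutation, the promoter of the plasmids, the strain and the age of the animals are not stated in the labels. They also do not say whether libraries came from separate animals, so p-values cover library-to-library spread alone, part of which may be technical.

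SR proteins bind exons through RNA recognition motifs and recruit splicing factors to nearby splice sites through a tail rich in arginine and serine. Kinases of the SRPK and CLK families phosphorylate this tail, which sets where in the cell the proteins sit and when they act. Many SR genes limit their own output: the protein promotes inclusion of a "poison" exon that holds a premature stop codon, and the resulting RNA is removed by nonsense-mediated decay. PRPF6 sits in the tri-snRNP of U4, U6 and U5, which joins the spliceosome after SR proteins and their partners have marked the splice sites.

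The mouse annotation GENCODE M21 (GRCm38) lists 85 transcripts for the 10 genes. Only 29 of them are protein-coding, while 15 are marked as targets of nonsense-mediated decay and 26 as retaining an intron. The 15 decay targets belong to 9 of the 10 genes, all but Srsf10. In 5 genes, Srsf3, Srsf4, Srsf7, Srsf9 and Srsf11, a decay transcript holds a separate exon that overlaps no exon of a protein-coding transcript and carries the annotated stop codon; there were 6 such exons. Exons of Srsf3, Srsf7 and Srsf11 are shown as examples. Each gene has a single deposited count, so the values given here do not separate productive from poison forms. The annotation used for counting is not stated, so whether reads of these exons entered the counts was not tested. Each exon shown is written 5′ to 3′ on the gene's strand, with the stop codon in capitals. The Srsf3 exon is 456 bases long and its opening 150 bases lie at chr17:29039454-29039603 (plus strand). The Srsf7 exon is 460 bases long and its opening 150 bases lie at chr17:80204932-80205081 (minus strand). The Srsf11 exon is shown whole, 109 bases at chr3:158024123-158024231 (minus strand).
Srsf3: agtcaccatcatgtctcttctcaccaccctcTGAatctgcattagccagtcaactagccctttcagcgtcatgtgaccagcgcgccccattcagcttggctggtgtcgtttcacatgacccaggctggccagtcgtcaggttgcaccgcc
Srsf7: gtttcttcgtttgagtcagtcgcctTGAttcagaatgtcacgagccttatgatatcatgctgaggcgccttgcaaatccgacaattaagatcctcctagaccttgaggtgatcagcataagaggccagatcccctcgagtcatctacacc
Srsf11: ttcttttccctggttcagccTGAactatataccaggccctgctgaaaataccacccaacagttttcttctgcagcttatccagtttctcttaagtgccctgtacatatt
In the exons shown the stop codon comes early, after 31 bases in Srsf3, 25 in Srsf7 and 20 in Srsf11. In those not shown it comes later, after 112 bases in Srsf4, 79 in Srsf9 and 47 in the other exon of Srsf11.

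Library totals were 45115122 to 60600617 expected counts. Levels are given as CPM, counts scaled to a common library size, and wherever a trio of CPM values is given it follows replicates 1, 2 and 3. Prpf6 itself was at 124 to 166 CPM with wild-type and at 125 to 145 CPM with mutant PRPF6, and whether these include plasmid transcripts was not tested. All 9 markers of dorsal cortex were detected, with a summed level of 2283 to 3753 CPM with wild-type and 1154 to 2934 CPM with mutant PRPF6. Wild-type replicate 3 stood apart in genes of other cells: the sum of 11 red blood cell genes was 17127 CPM there and 81.7 to 2819 CPM elsewhere, and that of 6 meningeal fibroblast genes was 1631 CPM there and 11.9 to 161 CPM elsewhere. Fitted levels of all 11 and all 6 genes were lower with mutant PRPF6, with median log2 differences of −3.56 and −3.15. The groups overlapped in both sums, but not in 3 of the 11 and 1 of the 6 genes, against 9.14% of all tested genes. The summed level of 10 radial glia genes was 1902 to 2619 CPM with wild-type and 2674 to 4718 CPM with mutant PRPF6, so the groups did not overlap. In 8 genes of young neurons the summed level was 4146 to 6410 CPM with wild-type and 2639 to 4186 CPM with mutant PRPF6, so the groups overlapped. Gene by gene, fitted levels were higher with mutant PRPF6 for all 10 radial glia genes (median log2 difference 0.64). They were lower for all 8 neuron genes (median −0.56). The groups did not overlap in 3 of the 10 radial glia genes and 1 of the 8 neuron genes, against 9.14% of all tested genes. In the edgeR test described below, 6 of the 10 and 1 of the 8 had an unadjusted p under 0.05, against 3.38% of all tested genes. After adjustment 0 of these genes were called. Fewer cells of a type and less RNA per cell cannot be told apart in such bulk libraries, and the part of these differences in the SR values was not tested.

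The SR genes were abundant in every library and did not differ between mutant and wild-type PRPF6 beyond the spread between libraries. Fitted levels were higher with mutant PRPF6 for Srsf2, Srsf3, Srsf4, Srsf7, Srsf9 and Srsf10 and lower for Srsf1, Srsf5, Srsf6 and Srsf11, and the differences ran only from −0.24 (Srsf5) to 0.13 (Srsf4) on the log2 scale. Their median was 0.037, beside −0.0013 over all tested genes. In the quasi-likelihood test of edgeR, adjusted over all genes by the Benjamini-Hochberg method, 0 of 10 members were called, as were 0% of the 14451 genes. The counts were the same with limma-voom, while DESeq2 called 0 of 10 members and 10 of the 3238 genes to which it gave an adjusted p (0.309%). By edgeR, 0 of 10 members and 3.38% of all genes had an unadjusted p below 0.05. The CPM of the groups overlapped in all 10 members, whereas in 9.14% of all tested genes they did not. The 95% intervals of the differences together reached from −0.59 to 0.53 (log2), that is, from 0.666-fold to 1.44-fold, and each of the 10 included 0.

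**Figure D1:**
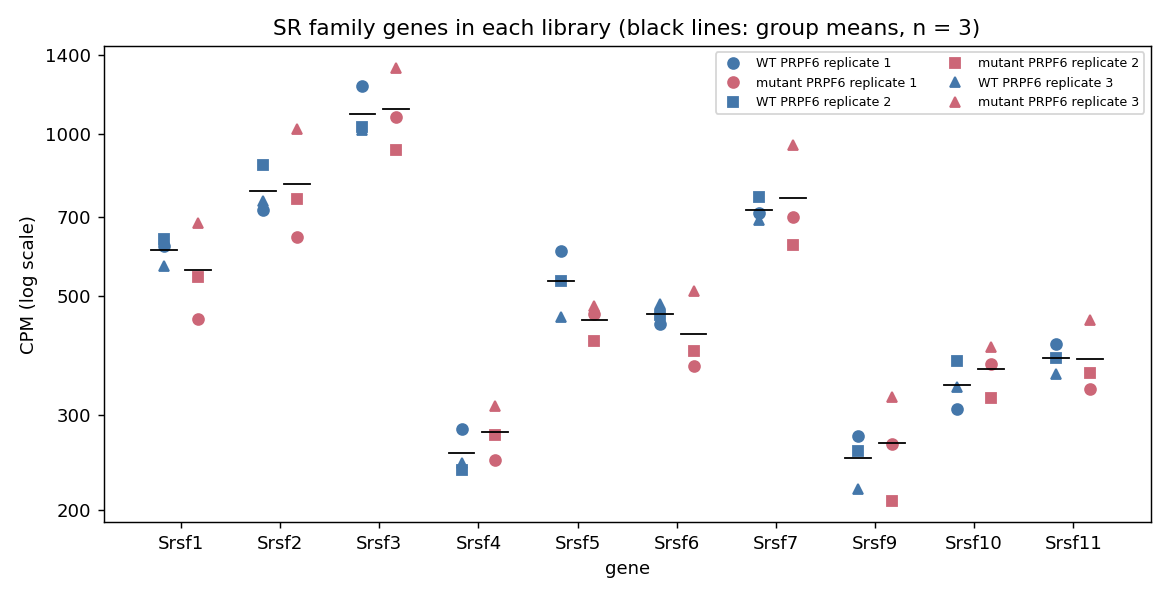
CPM of each SR family gene in each library, on a log axis, with wild-type PRPF6 in blue and mutant PRPF6 in red, 1 marker shape per replicate number, and black lines for the group means (n = 3). The groups overlap in all 10 genes, and the red triangle of mutant replicate 3 is the highest point in 9 of them.

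Srsf1 (chromosome 11, 88047373 to 88053755, plus strand), the founding member, binds purine-rich exonic enhancers and counters hnRNP repressors. Its wild-type libraries held 619, 638 and 567 CPM and its mutant libraries 452, 542 and 681 CPM. The lowest and the highest library were thus both mutant, and the wild-type values lay between them. The log2 difference was −0.12 ± 0.17 (SE; edgeR adjusted p = 1.00), with a 95% interval from −0.52 to 0.27.

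Srsf9 (chromosome 5, 115327177 to 115333080, plus strand) is the closest relative of Srsf1, also with a pair of RNA recognition motifs. It was at 274, 257 and 218 CPM with wild-type and at 265, 208 and 324 CPM with mutant PRPF6, again with both extremes among the mutant libraries. Its log2 difference was 0.089 ± 0.19 (SE), with an interval from −0.35 to 0.53, whose upper end was the highest of the family. The ratio of Srsf1 to Srsf9 within a library, which does not depend on how libraries are scaled, averaged 2.45 ± 0.17 (SD, n = 3) in the wild-type group against 2.14 ± 0.45 in the mutant group, and the groups overlapped (two-sided exact permutation p = 0.40; smallest possible 0.10). It was lowest, 1.71, in mutant replicate 1 and highest, 2.61, in mutant replicate 2.

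Srsf3 and Srsf7 have a single RNA recognition motif each, shuttle between nucleus and cytoplasm and hand mature mRNA to the export receptor NXF1. Srsf3 (chromosome 17, 29032628 to 29043373, plus strand) had the highest CPM of the family, 1226, 1029 and 1014 with wild-type and 1074, 931 and 1327 with mutant PRPF6. Mutant replicate 3 was the highest library and mutant replicate 2 the lowest. The group means were 1089.6 ± 119 and 1110.5 ± 201 CPM (SD, n = 3 each), and the log2 difference was 0.027 ± 0.17 (SE; interval −0.36 to 0.41).

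Srsf7 (chromosome 17, 80200080 to 80207307, minus strand), which differs from Srsf3 by a zinc knuckle, was at 712, 764 and 690.1 CPM with wild-type and at 701, 622 and 954 CPM with mutant PRPF6. The wild-type libraries lay close together, and mutant replicates 2 and 3 lay on either side of them. The log2 difference was 0.072 ± 0.18 (SE; interval −0.34 to 0.48). The ratio of Srsf3 to Srsf7 averaged 1.51 ± 0.19 in the wild-type group against 1.47 ± 0.073 in the mutant group (SD, n = 3 each; two-sided exact permutation p = 0.90).

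Srsf2, a factor that stays in the nucleus and marks nuclear speckles, was at 722, 873 and 748 CPM with wild-type and at 642, 756 and 1021 CPM with mutant PRPF6. With Srsf9 it varied most of the family over the 6 libraries, each with an SD of 0.23 in log2 CPM. The mutant values of Srsf2 spanned all of its wild-type ones. The log2 difference was 0.046 ± 0.19 (SE; interval −0.39 to 0.48). Srsf2 (chromosome 11, 116849901 to 116853094, minus strand) overlaps Mfsd11 and Mettl23 on the other strand. The strand setting of the counting is not stated, so whether reads of these genes entered its count was not tested. Its expected counts were whole in all 6 libraries.

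Srsf4, Srsf5 and Srsf6 form a branch with a second, degenerate RNA recognition motif and long arginine-serine tails. Srsf5 (chromosome 12, 80945504 to 80950507, plus strand) differed most between the groups. Its wild-type libraries held 604, 533 and 457 CPM and its mutant libraries 462, 411 and 477 CPM. Wild-type replicate 3, the library rich in red blood cell and meningeal genes, lay among the mutant values, and wild-type replicates 1 and 2 lay above them all. The means were 531 ± 73.6 and 449.9 ± 34.8 CPM (SD, n = 3 each), with a log2 difference of −0.24 ± 0.15 (SE), an unadjusted p of 0.15 and an adjusted p of 1.00 by edgeR, and a two-sided exact permutation p of 0.30. The interval ran from −0.59 to 0.11, so a fall to 0.666-fold and a rise to 1.08-fold were both inside it. Without wild-type replicate 1 the difference was −0.14, and without wild-type replicate 3 it was −0.33.

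Srsf6 (chromosome 2, 162931528 to 162937121, plus strand) was at 442, 460.3 and 483 CPM with wild-type and at 369, 394 and 509.6 CPM with mutant PRPF6. Mutant replicates 1 and 2 lay below the 3 wild-type libraries and mutant replicate 3 above them, and the log2 difference was −0.12 ± 0.16 (SE). Srsf4 (chromosome 4, 131873617 to 131901706, plus strand) was at 283, 237 and 244 CPM with wild-type and at 247, 275 and 312 CPM with mutant PRPF6, with a log2 difference of 0.13 ± 0.15 (SE), the largest of the family on the higher side. Its wild-type replicate 1 lay above mutant replicates 1 and 2. Srsf4 was also the member with expected counts that were not whole, in 5 of 6 libraries. This means that RSEM divided some of its reads with another gene. Srsf4 overlaps A930004J17Rik on the same strand and Gm12992 on the other, and whether its reads were divided with these was not tested. The other 9 members had counts within 0.001 of a whole number throughout. Of these, besides Srsf2, Srsf11 overlaps Gm43362 on the same strand and Srsf1 overlaps Gm11508 on the other. Whether reads of those genes entered the counts was not tested. The ratio of Srsf4 to Srsf6 averaged 0.554 ± 0.075 in the wild-type group against 0.660 ± 0.043 in the mutant group (SD, n = 3 each; two-sided exact permutation p = 0.20), and wild-type replicate 1, at 0.640, lay within the mutant range of 0.613 to 0.697. Of 5 ratios between members or to a close relative, 0 had groups that did not overlap, and the lowest p adjusted over the 5 was 0.875.

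Srsf10 (chromosome 4, 135855747 to 135869908, plus strand) acts as a general repressor of splicing once it is dephosphorylated, as in heat shock and mitosis, and otherwise as a sequence-dependent activator. It was at 307, 378 and 338 CPM with wild-type and at 373, 323 and 400.4 CPM with mutant PRPF6. Its SD over the 6 libraries, 0.15 in log2 CPM, was among the lowest of the family, with Srsf4 and Srsf11 also at 0.15. The groups interleaved, with a log2 difference of 0.10 ± 0.15 (SE; interval −0.24 to 0.44). Srsf11 (chromosome 3, 158010473 to 158036639, minus strand), an SR-related protein that helps include neuronal microexons, was at 407, 383 and 357 CPM with wild-type and at 335, 359 and 451 CPM with mutant PRPF6. Its means were almost equal, 382 ± 24.9 and 382 ± 60.9 CPM (SD, n = 3 each), and its log2 difference was −0.0013 ± 0.16 (SE), with an interval from −0.36 to 0.36.

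The clearest pattern among the members was a library, not a group. Mutant replicate 3 had the highest CPM in 9 of 10 members, all but Srsf5. It was also the highest of the 6 libraries in 17.8% of all tested genes and in 38.9% of the 573 genes within the abundance range of the members. The members' summed level was 5595, 5551 and 5116 CPM in the wild-type libraries and 4920.3, 4820.1 and 6457 CPM in the mutant ones. The means, 5420.5 ± 265 and 5399 ± 918 CPM (SD, n = 3 each), were close, while the mutant libraries were spread more widely. Averaged over the members, log2 CPM around each gene's 6-library mean was 0.25 in mutant replicate 3, −0.12 and −0.15 in mutant replicates 1 and 2, and 0.052, 0.042 and −0.074 in wild-type replicates 1, 2 and 3.

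**Figure D2:**
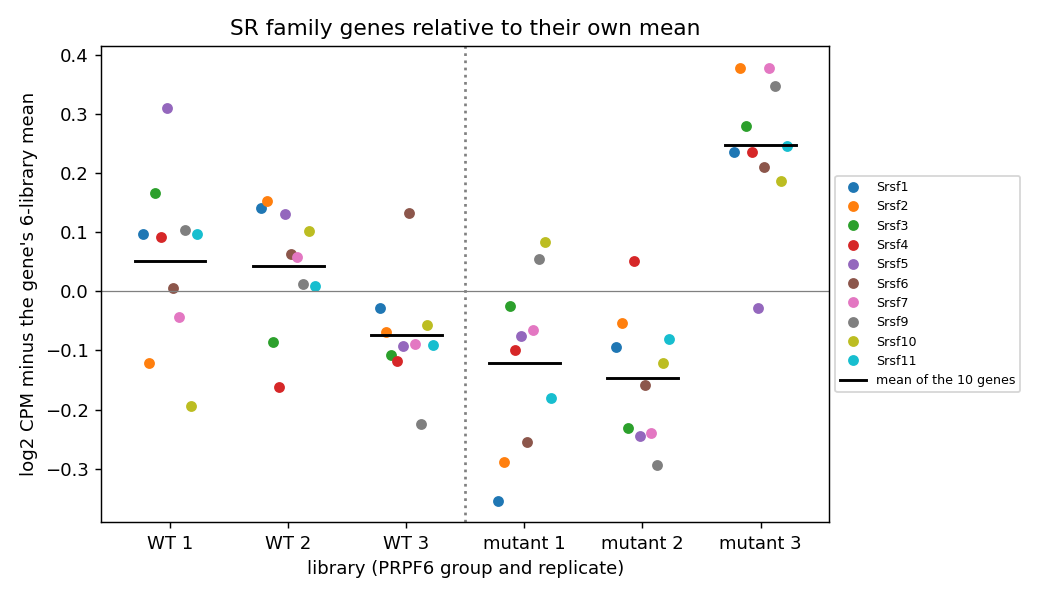
Log2 CPM of each SR family gene minus that gene's mean over the 6 libraries, by library, with black lines for the mean of the 10 genes. In mutant replicate 3 all genes but Srsf5 lie above 0 and their mean is 0.25, while the means of mutant replicates 1 and 2 are the lowest, −0.12 and −0.15.

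Leaving out mutant replicate 3 therefore moved the family more than any other omission. The median log2 difference became −0.13, with 2 members higher (Srsf4 and Srsf10) and 8 lower, against 6 and 4 with all libraries. Without mutant replicate 2 it was 0.11, with 7 higher and 3 lower. In either fit 0 of 10 members and 0% of all tested genes were called. Mutant replicate 3 also had the lowest summed red blood cell level, 81.7 CPM, and a low meningeal level, 20.7 CPM, while mutant replicate 2 had the highest summed level of 4 microglia genes, 325 CPM against 11.7 to 126 CPM elsewhere. Their part in the SR levels was not tested.

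Taken against the other 9 members in the same library, which removes such shared shifts, no member separated the groups either. The largest difference was that of Srsf5, which stood 0.13 ± 0.16 above the mean log2 CPM of the others with wild-type and at −0.11 ± 0.18 with mutant PRPF6 (SD, n = 3 each), a difference of −0.24 (two-sided exact permutation p = 0.20, adjusted over the 10 members p = 0.667). Srsf4 moved by 0.15 and Srsf1 by −0.14 in the same measure (two-sided exact permutation p = 0.30 each).

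Each member had 10346 to 62719 expected counts in a library, for which the counting error, a lower limit for amplified reads, is 0.399% to 0.983%. The coefficient of variation of CPM between replicates was 4.46% to 13.9% with wild-type and 7.74% to 24.1% with mutant PRPF6. The SD of log2 CPM over the 6 libraries had a median of 0.19 for the members and 0.20 for the 573 genes of the same abundance. The median absolute log2 difference between groups was 0.094 for the members and 0.13 for those genes.

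Levels of different members were compared per kilobase of transcript, using the longest principal protein-coding transcript of each gene. Srsf3 and Srsf2 were highest, at means of 420.2 and 418 CPM per kilobase over the 6 libraries, followed by Srsf7 at 324, Srsf5 at 313 and Srsf9 at 222. The remaining members were lower: Srsf6 at 126, Srsf11 at 123, Srsf4 at 118, Srsf1 at 109 and Srsf10 at 94.1. Neighbours in this order overlapped in their ranges over the 6 libraries, except that Srsf9 (179 to 279) lay wholly above Srsf6 (105 to 144). Srsf1 thus ranked low per length although its CPM was among the highest, since its transcript is 5362 bases long, against 1162 for Srsf9. With the length of all annotated exons in place of the principal transcript, Srsf2 led at 268 and Srsf3 fell to the fourth place at 139 CPM per kilobase, so the order depends on which transcripts carry the reads. All 10 members were in the top 10% of the tested genes by mean log2 CPM.

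**Figure D3:**
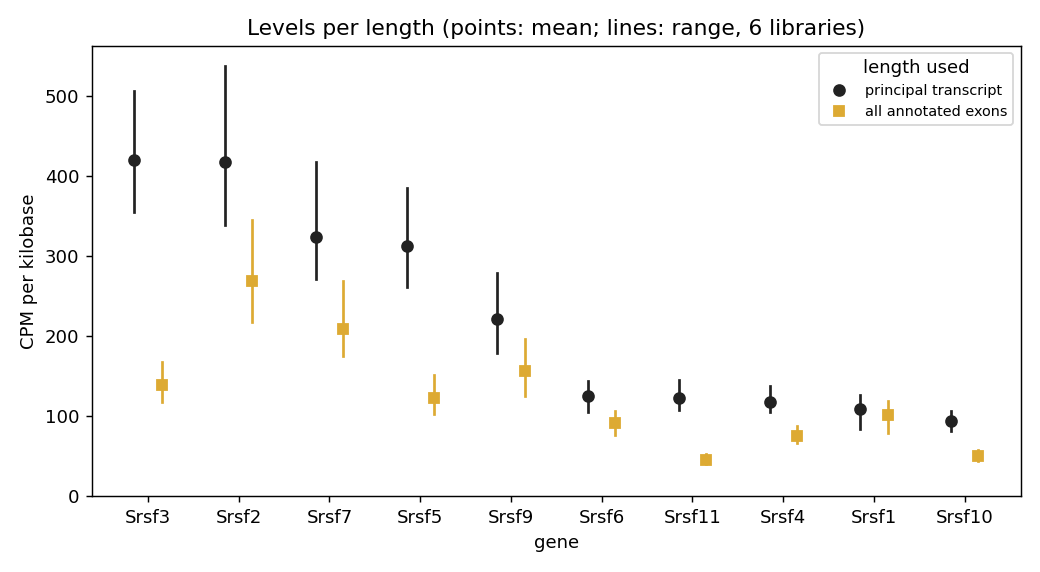
Mean (points) and range (lines) over the 6 libraries of CPM per kilobase for each SR family gene, with the length of the principal transcript (black) or of all annotated exons (yellow). Srsf3 and Srsf2 lead with the principal transcript, at 420.2 and 418, and Srsf3 drops to 139 when all annotated exons are used.

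The promoter windows of the members, 250 bases before to 50 bases after each RefSeq start site on GRCm38.p6, were rich in the dinucleotide CG. The 13 windows of the 10 genes, of which those of Srsf4 partly overlap, held 20 to 49 such dinucleotides, with a median of 38, against a median of 7 over 32851 windows of all genes. The letters TATAAA, searched on both strands, were found in 2 of the 13 windows (those of Srsf2 and Srsf3) and in 13.6% of all windows.

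Of 25 other genes of the SR pathway, 24 were tested, and 5 had higher and 19 lower fitted levels in the mutant group (median log2 difference −0.099). None was called (0 of 24 by edgeR's adjusted p, and 1 at an unadjusted p under 0.05, against 3.38% of all genes). In 4 of 24 the groups did not overlap, against 9.14% of all tested genes. The 4 were Srpk2, Clk1, Scaf1 and U2af2. Some directions rested on differences far below their SE, such as Nxf1 (−0.0010 ± 0.15) among the lower and Tnpo3 (0.0039 ± 0.16) among the higher. The number with higher fitted levels rested on single libraries: it was 10 without wild-type replicate 2, mutant replicate 1 or mutant replicate 2, 8 once wild-type replicate 3 was left out, 7 once wild-type replicate 1 was and 3 once mutant replicate 3 was. Of the 25 genes, 24 or 25 passed the filter in these fits, and 0 were called in any of them.

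Srpk2, a cytoplasmic kinase that phosphorylates SR tails, was at 121, 116 and 127 CPM with wild-type and at 109, 95.7 and 76.4 CPM with mutant PRPF6. Every mutant library was below every wild-type one, and the log2 difference was −0.37 ± 0.18 (SE; edgeR unadjusted p = 0.068, adjusted p = 1.00). Its counts were not whole in 6 of 6 libraries and so depend on how RSEM divided shared reads. The related kinase Srpk1 was at 119 ± 17.8 and 103 ± 22.5 CPM (SD, n = 3 each). Srpk3 was too low to be tested, at 0 to 0.603 CPM.

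Clk1, a nuclear kinase of SR proteins, was at 175, 162 and 159 CPM with wild-type and at 136, 131 and 152 CPM with mutant PRPF6. The log2 difference was −0.24 ± 0.14 (SE; edgeR adjusted p = 1.00). Its relatives Clk2, Clk3 and Clk4 had log2 differences of 0.072, −0.017 and −0.091. Over the 8 tested kinases, Dyrk1a and Prpf4b included, 2 had higher and 6 lower fitted levels. By edgeR, 0 of 8 reached an unadjusted p under 0.05, against 3.38% of all tested genes. Prpf4b, counted among the lower, differed by only −0.0065 ± 0.15 (log2, SE).

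U2af2, the large subunit of the factor that binds the polypyrimidine tract, was at 97.4, 88.8 and 92.03 CPM with wild-type and at 119, 128 and 129 CPM with mutant PRPF6. The log2 difference was 0.43 ± 0.14 (SE), with an edgeR unadjusted p of 0.017, an adjusted p of 1.00 and a two-sided exact permutation p of 0.10, the smallest that 3 against 3 allow. Its partner U2af1, the subunit that SR proteins contact, was at 172 ± 54.8 and 157 ± 15.4 CPM, and Snrnp70, the U1 protein contacted by SR proteins at the 5′ splice site, at 311 ± 36.5 and 270.1 ± 15.9 CPM (SD, n = 3 each). The 6 coactivators, among them the speckle proteins Srrm2 and Son, were all lower in fitted level, with log2 differences of −0.28 to −0.0032. The differences of Srrm1 (−0.0032 ± 0.17), Rnps1 (−0.0048 ± 0.16) and Srrm2 (−0.022 ± 0.15) were far below their SE, so their signs carry little. The groups overlapped in all 6 coactivators, whereas in 9.14% of all tested genes they did not.

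Among the SR-like genes, Tra2b averaged 298 ± 80.1 CPM in the wild-type libraries and 272 ± 9.33 CPM in the mutant ones, and Tra2a was at 78.4 ± 2.92 and 62.9 ± 14.3 CPM (SD, n = 3 each). Scaf1 was at 100.3, 87.2 and 111 CPM with wild-type and at 124, 118 and 117 CPM with mutant PRPF6. The log2 difference was 0.26 ± 0.16 (SE; edgeR adjusted p = 1.00). Srsf12, a close relative of Srsf10, was low, at 4.74 to 15.2 CPM over the 6 libraries. The import receptor Tnpo3 and the export receptor Nxf1 had log2 differences of 0.0039 and −0.0010.

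**Figure D4:**
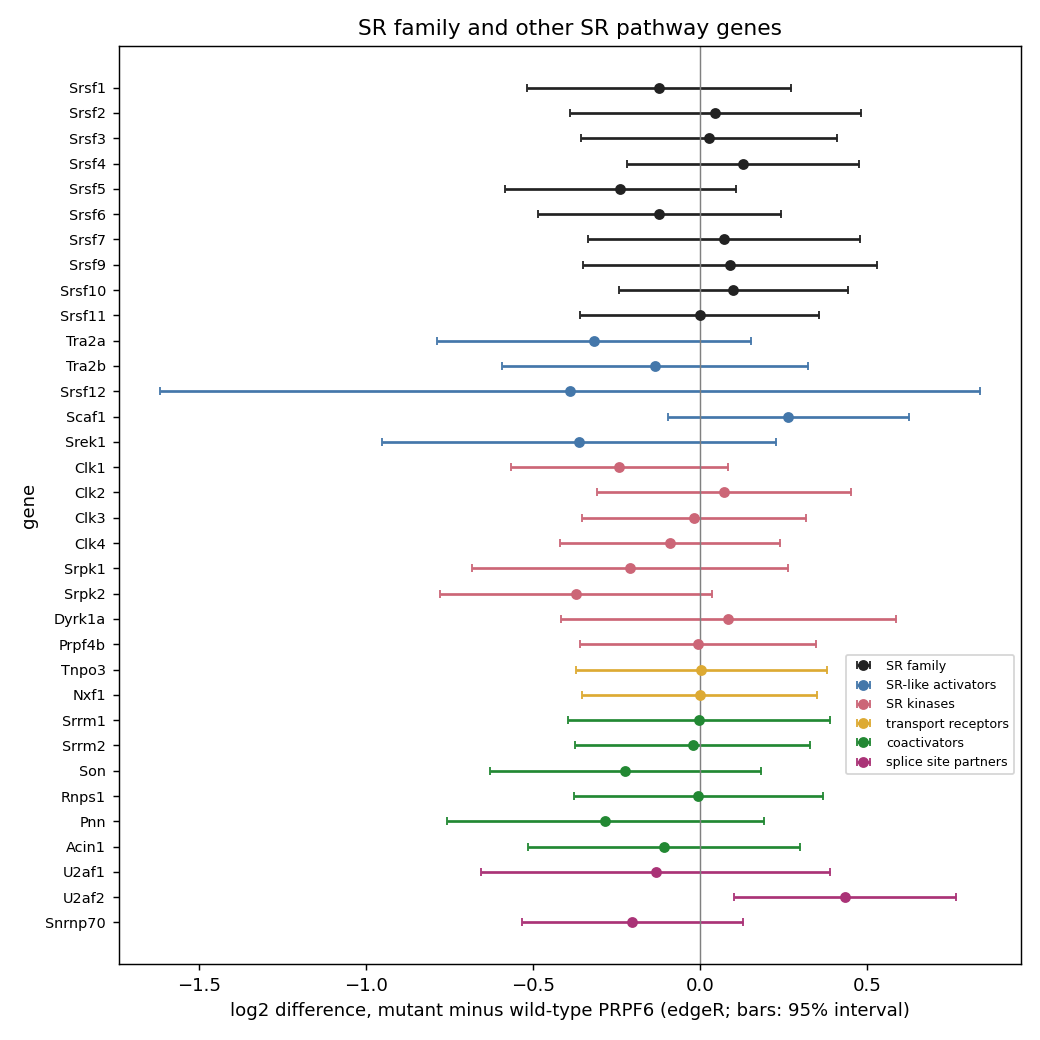
Log2 difference between mutant and wild-type PRPF6 (edgeR) with 95% intervals for the 10 SR family genes (black) and 24 other SR pathway genes, coloured by list name. All 10 SR family intervals include 0, as do those of the other genes except U2af2 (0.10 to 0.77), whose adjusted p was 1.00.

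The genes whose levels followed the family's mean pattern most closely over the 6 libraries, among 6671 genes whose log2 CPM averaged 5 or more, were Psme3 (a proteasome activator subunit), Trim27 (a ubiquitin ligase) and Nono. Their mean absolute differences from that pattern were 0.014, 0.019 and 0.024 log2 units. Being picked as the nearest of so many genes, they lie close to it by construction. The members, which were not picked in this way, lay between 0.037 (Srsf11) and 0.13 (Srsf5) from it. Nono, a paraspeckle RNA-binding protein, was at 961, 933 and 860.04 CPM with wild-type and at 812, 809.99 and 1032 CPM with mutant PRPF6.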

How the data were processed

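Messenger RNA was sequenced from 6 libraries of GFP-sorted, electroporated mouse cortical cells, grouped by sample title (3 wild-type, 3 mutant PRPF6). The values deposited by the authors are unscaled expected counts for each gene, from RSEM and the build mm10 per the submitters' processing notes. The sources used here give no aligner, annotation or strand setting. Amplified reads without molecular identifiers are not independent molecules, so counting errors are lower limits. Totals were 45115122 to 60600617.

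Expected counts were rounded. All 14451 genes passing filterByExpr were fitted with edgeR 4.0.16 (R 4.3.3; TMM factors, robust quasi-likelihood, group as the only term), with Benjamini-Hochberg adjustment over all of them at 0.05. The fitting code was run on simulated counts drawn with the means and dispersions of this same fit. Such a run checks the code and cannot show how well the test is calibrated on the real counts. CPM use TMM-scaled totals, log2 CPM a prior count of 2, and 95% intervals the quasi-likelihood SE. Single values were compared by two-sided exact permutation. Alternatives used DESeq2 1.42.0, limma 3.58.1, other factors and filters, a replicate block and omission of each library. Lengths, exons and coordinates come from GENCODE M21 (GRCm38), matched by symbol for all 10 members; promoter windows are from RefSeq (GRCm38.p6), also for all 10.

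Members and lists were chosen with earlier results of these data known. Named genes are the 10 members, the SR pathway list, Prpf6 and the 3 genes nearest to the members' mean profile.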

Additional observations from a re-analysis of the deposited data

How the results depend on the processing

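No SR family gene was called under any of 14 alternatives (lowest adjusted p = 0.832). Of 140 member values under these alternatives, 129 kept their direction and 11 turned, all 11 of them when a single library was left out; Srsf4, Srsf5, Srsf6 and Srsf10 kept their direction throughout. Leaving out libraries in turn gave log2 differences of 0.035 to 0.21 for Srsf4, −0.33 to −0.14 for Srsf5, −0.28 to −0.031 for Srsf6, 0.028 to 0.18 for Srsf10, −0.29 to 0.0080 for Srsf1, −0.16 to 0.19 for Srsf2, −0.12 to 0.14 for Srsf3, −0.13 to 0.20 for Srsf7, −0.081 to 0.24 for Srsf9 and −0.14 to 0.084 for Srsf11. The family's median ran from −0.13 without mutant replicate 3 to 0.11 without mutant replicate 2, and from 0.011 to 0.038 under the other alternatives. DESeq2 called 10 genes, all higher and none a member, where edgeR called 0 (489 at an unadjusted p under 0.05, against 642 by DESeq2 and 551 by limma-voom). DESeq2 gave no adjusted p to 11068 of its genes, so its adjustment ran over 3238, against 14451 for edgeR. Upper-quartile factors moved the median of all genes only to −0.027.

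The labels do not say whether the replicate numbers shared by the groups pair the libraries. Correlations of the deviations from the group means over all tested genes were 0.054, 0.061 and −0.26 for replicates 1, 2 and 3. With only 3 libraries a group, and deviations that balance out within each group, these values cannot decide it. With a replicate block 0 genes were called, 307 stood at an unadjusted p under 0.05, and the members' median log2 difference was 0.020. With 3 libraries a group the median SE of a member's log2 difference was 0.16.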
